A study of Mus musculus with 9 samples.

Results

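A set of 10 genes of iron handling and of the defense against ferroptosis was followed in mouse primary renal tubular epithelial cells: Fth1, Ftl1, Ncoa4, Tfrc, Slc11a2, Slc40a1, Ireb2, Gpx4, Aifm2 and Acsl4. They were taken by gene symbol from a table of 31167 genes, and all 10 members had a row and passed the filter on low values. The cells came from C57BL/6 kidney and were measured by bulk RNA sequencing in 3 groups of 3 libraries. Sham cells carry no treatment in the labels. H/R cells had 6 h of hypoxia at 1.0% oxygen in medium without glucose and then 18 h of reoxygenation in complete medium. EGR1OV cells were transfected, with a lipid reagent, with a plasmid that drives the transcription factor Egr1 from the CMV promoter, which is active in most cell types. The labels do not say that Sham or H/R cells received an empty plasmid, so Egr1 and the transfection itself cannot be told apart in EGR1OV. They also do not say that the replicates are separate cultures or animals, so the p-values measure the spread between these libraries, which may be technical.

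Cells store iron inside ferritin, a shell built of heavy chains (Fth1) and light chains (Ftl1), and the cargo receptor Ncoa4 delivers ferritin for breakdown so that the iron is released. Iron bound to transferrin enters through the transferrin receptor Tfrc, divalent iron crosses membranes through Slc11a2 (also called DMT1), and Slc40a1 (ferroportin) is the known exporter. Ireb2 is an iron regulatory protein that binds hairpins in several of these mRNAs when iron is scarce, which blocks translation of ferritin and stabilizes the Tfrc mRNA. Ferroptosis is a form of cell death driven by iron-dependent peroxidation of membrane lipids, to which tubule cells are known to be sensitive. Gpx4 reduces lipid peroxides with glutathione, Aifm2 (also called FSP1) acts in parallel by reducing coenzyme Q, and Acsl4 loads polyunsaturated fatty acids into the lipids that are oxidized.

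The hairpins that link these genes to iron level are called iron responsive elements, and their mRNA sequences are shown for the 4 of 10 members that matched the pattern searched. In the annotated coding transcripts (GENCODE M21, build GRCm38, written as DNA on the strand of the mRNA), a search was made for a C, then 5 bases, then the loop CAGTGN with a last base other than G, then 5 bases that pair with the first 5. The pairs were allowed to be G with T. Of 21901 coding genes, 222 (1.01%) held such a match. Fth1, Ftl1 and Slc40a1 each had 1 in the 5′ untranslated region, and Tfrc had 4 in the 3′ untranslated region. Matches lay in 4 of 5 annotated coding transcripts of Fth1, 1 of 2 of Ftl1, 1 of 4 of Slc40a1 and 1 of 3 of Tfrc. The expression values below are per gene and do not tell these transcripts apart. The loop is in capitals, and each stretch is 30 bases.
Fth1 (5′ UTR, chr19:9982732-9982761, plus strand): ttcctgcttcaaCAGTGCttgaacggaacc
Ftl1 (5′ UTR, chr7:45459778-45459807, minus strand): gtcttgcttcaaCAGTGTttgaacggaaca
Slc40a1 (5′ UTR, chr1:45925464-45925493, minus strand): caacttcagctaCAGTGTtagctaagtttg
Tfrc (3′ UTR, chr16:32631219-32631248, plus strand): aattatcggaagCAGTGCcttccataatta
Tfrc (3′ UTR, chr16:32631598-32631627, plus strand): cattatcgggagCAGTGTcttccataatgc
Tfrc (3′ UTR, chr16:32631663-32631692, plus strand): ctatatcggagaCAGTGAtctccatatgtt
Tfrc (3′ UTR, chr16:32631710-32631739, plus strand): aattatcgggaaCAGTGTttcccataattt
The other 6 members had no match to this pattern in their annotated coding transcripts, which says only that these letters were not there. Slc11a2, for example, is known to carry such an element in some of its transcripts, and this strict pattern did not find it.

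Since Egr1 was the gene overexpressed, the promoters were also searched for its DNA motif GCGNGGGCG on both strands. RefSeq promoter windows (build GRCm38.p6) of the 250 bases before each start were used for the 8 members that matched by symbol, 15 windows in all. Slc11a2 and Slc40a1 had no window and were not searched. One of these 15 windows held the motif, against 4.7% of all 32851 windows. It belonged to Fth1 (chr19:9982396-9982645, plus strand), on the reverse strand with its first base 76 bases before the start. That base lies after another annotated start of Fth1, whose window was chr19:9980350-9980599, so it may lie within a longer transcript. Only the 29 bases around the motif are shown, with the motif in capitals.
Fth1 promoter site (chr19:9982560-9982588, plus strand): ggctcctcccCGCCCGCGCcctgcgggtt
The antioxidant response motif TGACNNNGC was found in 1 window, of Ncoa4, against 10.2% of all windows. A match is a run of letters and not evidence that a factor binds there.

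The values are FPKM (fragment counts divided by exon length and by library size), tested as log2(FPKM + 1) with limma over 13985 genes. A gene is said below to have risen or fallen when its Benjamini-Hochberg adjusted p was under 0.05. It was called when it also changed at least 1.3-fold in EGR1OV against Sham or H/R, or 1.2-fold in H/R against Sham. These folds are taken on the log2(FPKM + 1) scale, where low genes change less than in FPKM. With 3 libraries against 3, an exact permutation test cannot go below p = 0.1, so it cannot reach 0.05 for any gene. Depth, worked out from the steps of low values, ran from 16183617 to 18384022 reads. Egr1 itself was at 6.40 FPKM in Sham, 7.88 FPKM in H/R and 42.6 FPKM in EGR1OV, a difference from Sham of +2.56 on the log2(FPKM + 1) scale in EGR1OV (SE 0.066, n = 3, adjusted p = 2.19e-09). In H/R that difference was +0.26 (adjusted p = 0.0348), and it no longer passed when any 1 of 6 of the 9 libraries was left out (adjusted p = 0.0551 without H/R replicate 3). A 57-base gene of the annotation, Gm23935, took 0.00852 to 0.124% of the reads and was highest in Sham replicate 3, H/R replicates 2 and 3 and EGR1OV replicate 3. Without these 4 libraries the same 3 members were called in EGR1OV against Sham.

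The tubule label was checked against 16 epithelial markers, of which 15 had a row and 10 passed the filter. Their summed level was 1930 to 1966 FPKM in Sham, 1785 to 1864 FPKM in H/R and 1271 to 1377 FPKM in EGR1OV, mostly from the keratins Krt8 and Krt18. The segment markers Cubn, Slc34a1, Slc12a1 and Slc12a3 were under the filter, and Umod was listed at 0 in every library. In EGR1OV against Sham, 4 of the 10 (Lrp2, Aqp1, Krt18 and Krt8) were called lower and Epcam was called higher. Of all genes tested, 6.51% were called lower and 9.87% higher in that comparison. Macrophage markers were also present: 16 markers summed to 172 to 177 FPKM in Sham, 145 to 158 FPKM in H/R and 47.6 to 53.4 FPKM in EGR1OV, and none was at 0 in every library. Of the 13 tested, 11 were called lower in EGR1OV against Sham and 1, Mpeg1, was called higher, beside the same shares of all genes. Macrophages are also known to express much ferritin, Slc40a1 and Hmox1, and fewer cells of a type cannot be told apart from less RNA per cell in bulk samples. The part of these cells in the results below was not tested. Fibroblast markers summed to 31.8 to 33.4 FPKM in Sham, 37.97 to 39.5 FPKM in H/R and 36.8 to 41.8 FPKM in EGR1OV, and endothelial markers to 9.81 to 10.1, 9.79 to 10.1 and 6.76 to 7.43 FPKM.

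The 10 genes spanned a wide range of level in Sham. Fth1 stood highest at 545 ± 17.4 FPKM (SD, n = 3 here and below), followed by Gpx4 at 108 ± 4.21 FPKM and Ftl1 at 105 ± 4.55 FPKM, whose libraries overlapped. Tfrc (23.9 ± 0.445 FPKM), Acsl4 (21.9 ± 0.693 FPKM) and Ireb2 (18.1 ± 0.317 FPKM) formed the middle of the order. Ncoa4 (7.12 ± 0.270 FPKM), Slc11a2 (6.17 ± 0.257 FPKM), Slc40a1 (4.56 ± 0.199 FPKM) and Aifm2 (4.12 ± 0.143 FPKM) were lowest. In Sham the libraries of Gpx4 and Ftl1 were the only neighbours in this order that overlapped. In H/R the overlapping neighbours were Gpx4 with Ftl1, Acsl4 with Tfrc, and Slc40a1 with Aifm2, and Acsl4 stood above Tfrc. In EGR1OV no neighbours overlapped, and the order was Fth1, Ftl1, Gpx4, Acsl4, Tfrc, Ireb2, Slc11a2, Ncoa4, Aifm2 and Slc40a1. Except for Fth1, these levels are per length of all annotated exons. That length is long for some members (9479 bases for Ireb2, 9000 for Slc40a1) and lowers their FPKM where cells use a shorter transcript. For Fth1 the values are per 866 bases and not the 3469 of the annotation, which makes its level higher than on the basis of the other members.

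**Figure D1:**
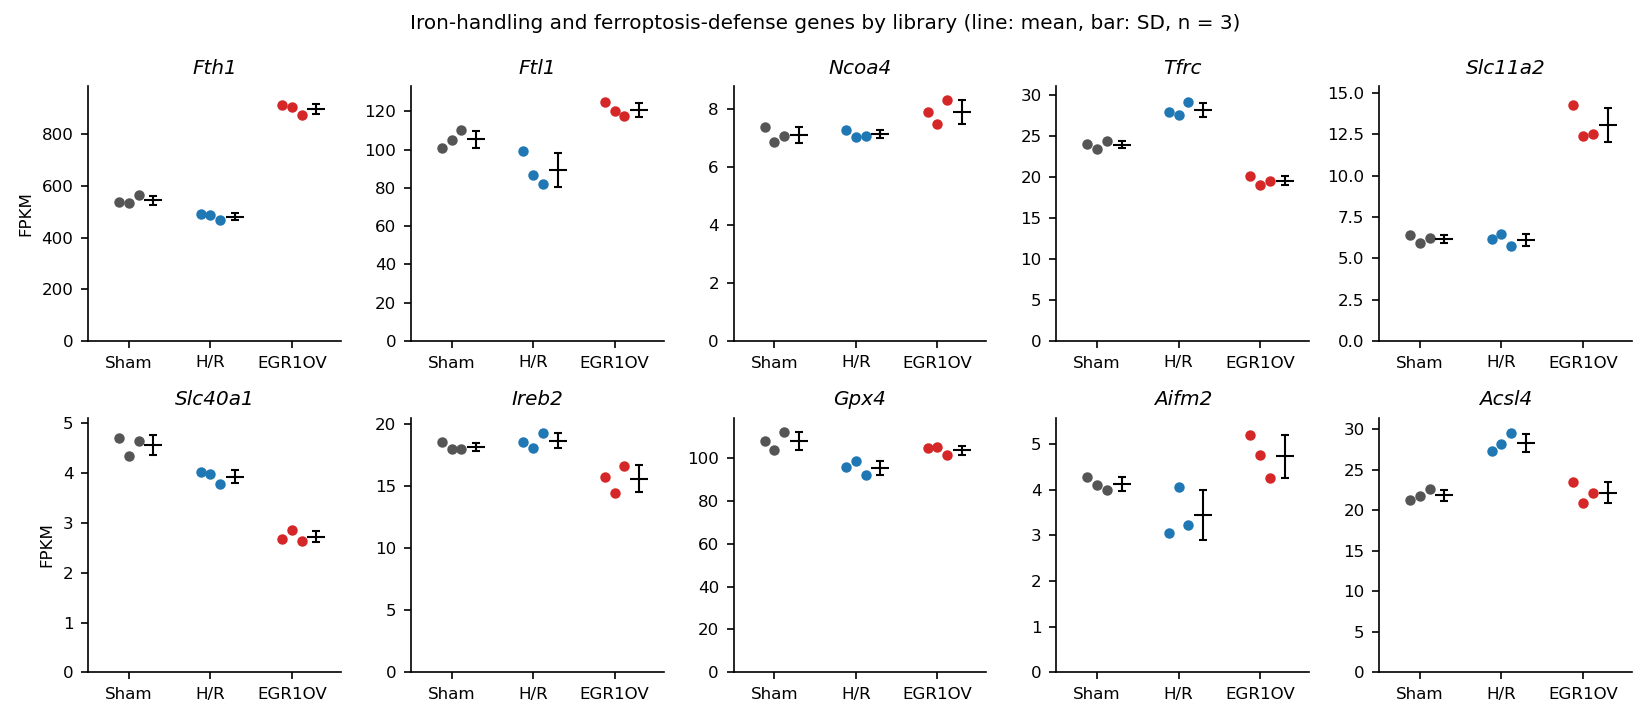
FPKM of each of the 10 genes (1 panel per gene, vertical axis in FPKM) in the 3 libraries of Sham, H/R and EGR1OV; points are libraries, the short line beside them is the group mean and the bar is 1 SD to each side (n = 3). Fth1 and Slc11a2 stand highest in EGR1OV and Slc40a1 lowest there, while Acsl4 and Tfrc stand highest in H/R, each without overlap with the other groups.

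The first comparison asked how these genes differed after transfection with the Egr1 plasmid. In EGR1OV against Sham, Fth1 and Slc11a2 were called higher and Slc40a1 was called lower, so mRNAs for a storage chain and an importer were raised and that for the exporter was reduced. Tfrc and Ireb2 also fell and Ftl1 and Ncoa4 also rose, all by less than 1.3-fold. Gpx4, Aifm2 and Acsl4 did not pass the test, although Gpx4 passed as a fall with quantile normalization (−0.12, adjusted p = 0.0211). The 3 called members of 10 stand beside 16.4% of all genes tested that were called (9.87% higher and 6.51% lower), and the 7 that passed at adjusted p under 0.05 (4 higher, 3 lower) beside 45.9% (26.1% higher, 19.8% lower). The median change of the 10 members was 0.08 and that of all genes tested was 0.02, both as log2 differences.

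The second comparison asked how these genes differed after the H/R treatment. Low oxygen, the lack of glucose and the change of medium came together in H/R and cannot be told apart. In H/R against Sham, Acsl4 alone was called, and it was higher. Tfrc rose as well, while Fth1, Ftl1, Gpx4 and Slc40a1 fell, all by less than 1.2-fold. One called member of 10 stands beside 4.25% of all genes tested (1.6% higher, 2.65% lower), and the 6 that passed (2 higher, 4 lower) beside 11.7% (4.15% higher, 7.54% lower). The median change of the 10 members was −0.09 and that of all genes tested was −0.03, as log2 differences. Median-ratio scaling added Tfrc as a second called member. Without the 4 libraries of high Gm23935, which leaves a single H/R library that is assumed to vary like the other groups, 0 of 10 members passed with limma and 5 of 10 had an unadjusted p under 0.05.

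Between the treated groups, EGR1OV against H/R, 5 of the 10 members were called. Fth1, Slc11a2 and Ftl1 were higher in EGR1OV and Tfrc and Slc40a1 were lower. With median-ratio scaling or quantile normalization Acsl4 was called lower in place of Ftl1, which made 2 higher and 3 lower. These 5 stand beside 18.9% of all genes tested (11.9% higher, 6.94% lower), and the 10 members that passed at adjusted p under 0.05 (6 higher, 4 lower) beside 51.0% (32.0% higher). The libraries of the groups did not overlap for any of the 10 members here, against 58.6% of all genes tested. For EGR1OV against Sham 7 members did not overlap (55.7% of all genes tested), and for H/R against Sham 6 did not (33.6%). These shares take in genes down to a mean of 0.5 FPKM and were not matched to the levels of the members. The 3 comparisons share libraries, so they do not stand apart from each other as evidence.

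**Figure D2:**
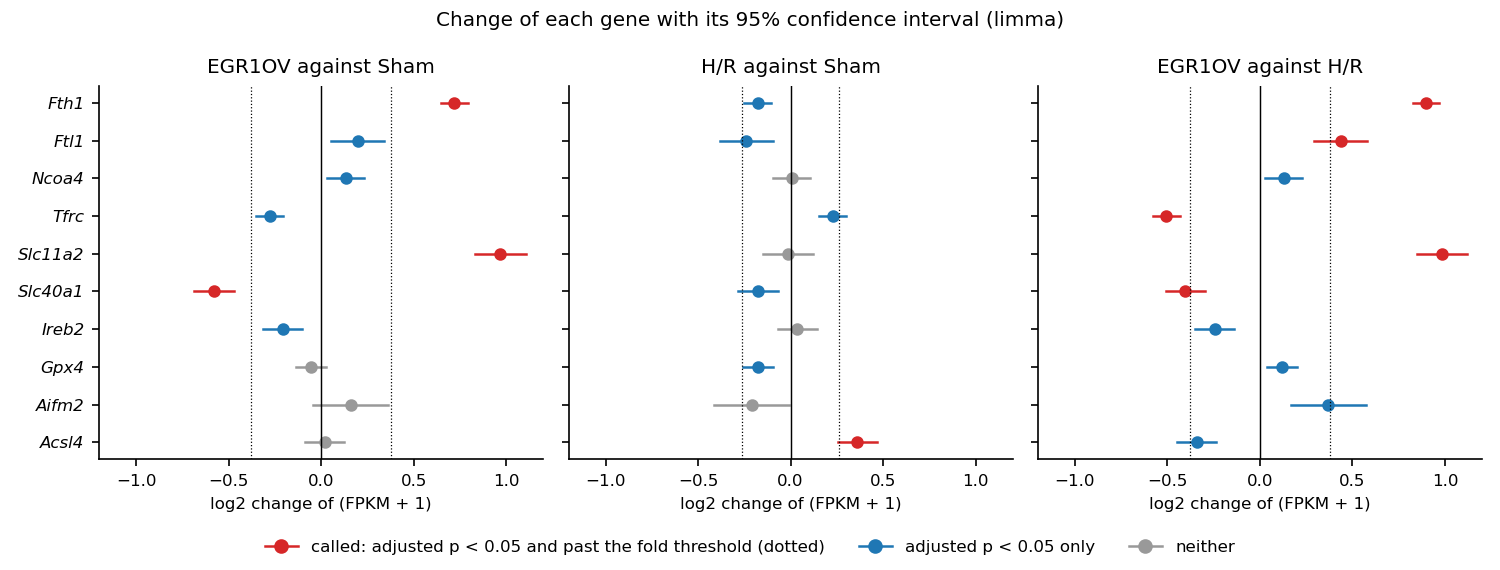
Log2 difference of each of the 10 genes on the log2(FPKM + 1) scale (horizontal axis) in EGR1OV against Sham, H/R against Sham and EGR1OV against H/R, with 95% confidence intervals from limma and dotted lines at the fold thresholds; red genes are called, blue genes have an adjusted p under 0.05 only and grey genes neither. In EGR1OV against Sham, Slc11a2 (+0.97) and Fth1 (+0.72) lie farthest to the right and Slc40a1 (−0.58) farthest to the left, and in H/R against Sham Acsl4 (+0.36) lies farthest to the right.

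Among the storage genes, the ferritin heavy chain Fth1 (ENSMUSG00000024661, chr19:9982703-9985092, plus strand) was the most abundant member in every library. It measured 537, 533 and 565 FPKM in Sham replicates 1 to 3, 492, 487 and 467 FPKM in H/R and 914, 905 and 877 FPKM in EGR1OV. The 3 groups were apart from each other, with every H/R library under every Sham library and every EGR1OV library above both. The mean in EGR1OV was 1.65 times that in Sham, a log2 difference of +0.72 (SE 0.032, 95% interval 0.65 to 0.79, adjusted p = 1.27e-07). Against H/R it was 1.86 times (log2 difference +0.90, adjusted p = 2.45e-08). The fall in H/R was 11.6% of the Sham mean (log2 difference −0.18, adjusted p = 0.0105). This fall did not pass without the filter on low values (adjusted p = 0.054). The number of reads behind each value was 6892 to 13150.

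The ferritin light chain Ftl1 (ENSMUSG00000050708, chr7:45457944-45459884, minus strand) moved in the same directions as the heavy chain. Against Sham, its log2 rise in EGR1OV was smaller (+0.20 against +0.72 for Fth1), while its fall in H/R was not (−0.24 against −0.18). Ftl1 measured 101, 105 and 110 FPKM in Sham, 99.1, 87.0 and 82.1 FPKM in H/R and 125, 120 and 118 FPKM in EGR1OV. No group overlapped another, and H/R replicate 1 lay close to the lowest Sham library. The log2 difference was +0.20 in EGR1OV against Sham (SE 0.063, adjusted p = 0.029), −0.24 in H/R against Sham (adjusted p = 0.0407) and +0.44 in EGR1OV against H/R (adjusted p = 0.000345), and the last was called at 1.35 times. Both changes against Sham were near the threshold, since the H/R one passed in 5 of 20 alternative settings and the EGR1OV one in 12 of 20. Leaving out H/R replicate 1, the highest of its group, took the H/R change to −0.31 (adjusted p = 0.00781), and leaving out any other single library ended the pass (adjusted p = 0.11 without H/R replicate 3). Without the 4 libraries of high Gm23935 the H/R change was −0.06 (adjusted p = 0.598). The EGR1OV change did not pass without Sham replicate 1 or 2 or EGR1OV replicate 1 or 2 (adjusted p = 0.0957 without Sham replicate 1). The call against H/R was lost without H/R replicate 3, where the difference was +0.38 and just under 1.3-fold. It was also lost with median-ratio scaling (+0.37), with quantile normalization (+0.36) and without the 4 libraries of high Gm23935 (+0.30).

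The ratio of heavy to light chain mRNA was highest in EGR1OV. The ratio of Fth1 to Ftl1 FPKM was 5.32, 5.06 and 5.13 in Sham (5.17 ± 0.134), 4.96, 5.61 and 5.68 in H/R (5.42 ± 0.396) and 7.33, 7.51 and 7.45 in EGR1OV (7.43 ± 0.0939). Sham and H/R overlapped in this ratio, and all 3 EGR1OV libraries were above them. The size of the ratio rests on the 866 bases used for Fth1 in place of the 3469 of the annotation, while the order of the libraries does not. Copies of ferritin genes could take or lend reads. Ftl1-ps1, which carries a pseudogene symbol but is annotated as protein coding, was at 5.21, 4.27 and 6.13 FPKM on average in Sham, H/R and EGR1OV, and was called in EGR1OV against H/R (log2 difference +0.45, adjusted p = 0.0165), as Ftl1 was. The processed pseudogenes Ftl2-ps and Fth-ps2 had at most 4 reads in any library. How the authors counted reads that fit several places is not given in the sources used here, so the ferritin levels are uncertain by that share.

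**Figure D3:**
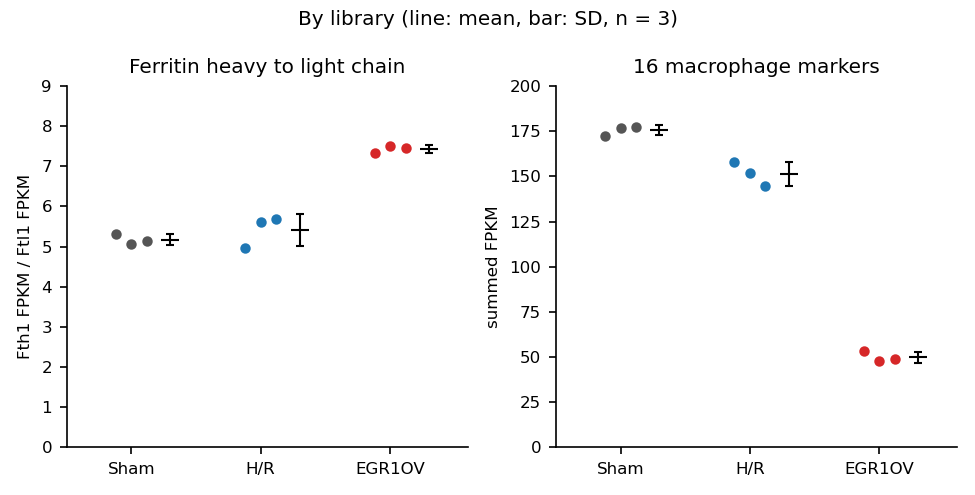
Left, ratio of Fth1 to Ftl1 FPKM in each library, and right, summed FPKM of 16 macrophage markers in each library, for Sham, H/R and EGR1OV, with points for libraries and the mean and SD (n = 3) beside them. The ratio is 7.33 to 7.51 in EGR1OV against 4.96 to 5.68 in the other groups, and the marker sum is 47.6 to 53.4 FPKM in EGR1OV against 145 to 177 FPKM in the others.

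Ncoa4 (ENSMUSG00000056234, chr14:32159865-32179855, plus strand), the receptor for ferritin breakdown, moved least of the storage genes. It measured 7.40, 6.87 and 7.09 FPKM in Sham, 7.29, 7.06 and 7.09 FPKM in H/R and 7.92, 7.49 and 8.31 FPKM in EGR1OV. Sham and H/R overlapped, and EGR1OV lay above both by a narrow margin. On the log2 scale the difference was +0.13 in EGR1OV against Sham (SE 0.044, adjusted p = 0.0336), +0.13 against H/R (adjusted p = 0.0365) and +0.01 in H/R against Sham (95% interval −0.09 to 0.10, adjusted p = 0.954). Quantile normalization reduced the EGR1OV changes to +0.03 (adjusted p = 0.646) against Sham and to −0.01 (adjusted p = 0.897) against H/R. Without EGR1OV replicate 3 the adjusted p was 0.113 against Sham and 0.122 against H/R, and leaving out several other single libraries also ended the passes (Sham replicates 2 and 3 and EGR1OV replicate 1 against Sham, and Sham replicate 3, each H/R replicate and EGR1OV replicate 1 against H/R).

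Among the uptake genes, Slc11a2 (ENSMUSG00000023030, chr15:100387898-100425072, minus strand) had the largest log2 difference of the 10 members in EGR1OV against Sham, except with quantile normalization, where Fth1 (+0.89) stood above it (+0.87). This transporter of divalent iron measured 6.40, 5.89 and 6.22 FPKM in Sham, 6.14, 6.45 and 5.75 FPKM in H/R and 14.3, 12.4 and 12.5 FPKM in EGR1OV. Sham and H/R overlapped fully, and each EGR1OV library was far above them. The EGR1OV mean was 2.12 times the Sham mean (log2 difference +0.97, SE 0.060, 95% interval 0.83 to 1.10, adjusted p = 1.30e-06) and 2.14 times the H/R mean (adjusted p = 1.12e-06). H/R and Sham differed by −0.01 (95% interval −0.15 to 0.12, adjusted p = 0.921). The values rest on 631 to 1504 reads per library.

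The transferrin receptor Tfrc (ENSMUSG00000022797, chr16:32608920-32632794, plus strand) moved in opposite directions in the treated groups. It measured 23.99, 23.4 and 24.3 FPKM in Sham, 27.9, 27.5 and 29.1 FPKM in H/R and 20.1, 18.9 and 19.5 FPKM in EGR1OV. No library of a group overlapped another group. The log2 difference was −0.28 in EGR1OV against Sham (SE 0.033, adjusted p = 0.000113) and +0.23 in H/R against Sham (adjusted p = 0.00415). Between EGR1OV and H/R it was −0.51 (adjusted p = 1.79e-06), a ratio of 0.694. The direction of each change was the same in all 20 alternative settings, and median-ratio scaling raised the H/R change to +0.27 and past 1.2-fold.

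The exporter ferroportin, Slc40a1 (ENSMUSG00000025993, chr1:45908068-45926523, minus strand), had the largest fall of the members in EGR1OV against Sham. It measured 4.70, 4.33 and 4.64 FPKM in Sham, 4.02, 3.97 and 3.78 FPKM in H/R and 2.68, 2.85 and 2.64 FPKM in EGR1OV. The groups stood in 3 steps without overlap. The EGR1OV mean was 0.597 of the Sham mean (log2 difference −0.58, SE 0.047, 95% interval −0.69 to −0.47, adjusted p = 9.61e-06) and 0.694 of the H/R mean (adjusted p = 9.54e-05). The smaller fall in H/R (log2 difference −0.18, adjusted p = 0.0452) passed in 3 of 19 alternative settings and did not pass when any single library was left out (adjusted p = 0.132 without H/R replicate 3). The values rest on 400 to 696 reads per library. The summed macrophage markers were lower in the same libraries, at 172 to 177 FPKM in Sham, 145 to 158 FPKM in H/R and 47.6 to 53.4 FPKM in EGR1OV, and their part in the fall of Slc40a1 was not tested.

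Ireb2 (ENSMUSG00000032293, chr9:54863789-54912530, plus strand), the iron regulatory protein, was lower in EGR1OV than in both other groups. It measured 18.5, 17.9 and 18.0 FPKM in Sham, 18.6, 18.1 and 19.3 FPKM in H/R and 15.7, 14.5 and 16.6 FPKM in EGR1OV. Sham and H/R overlapped, and all EGR1OV libraries were under both. In log2 terms it differed by −0.21 in EGR1OV against Sham (SE 0.047, adjusted p = 0.00552), −0.25 against H/R (adjusted p = 0.00195) and +0.04 in H/R against Sham (95% interval −0.07 to 0.14, adjusted p = 0.661).

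Of the genes that act on lipid peroxides, the peroxidase Gpx4 (ENSMUSG00000075706, chr10:80047166-80056439, plus strand) was lowest in H/R. It measured 108, 104 and 112 FPKM in Sham, 95.4, 98.4 and 91.8 FPKM in H/R and 104, 105 and 101 FPKM in EGR1OV. H/R lay under both other groups, and EGR1OV overlapped Sham. The log2 difference was −0.18 in H/R against Sham (SE 0.036, adjusted p = 0.0156), −0.06 in EGR1OV against Sham (95% interval −0.14 to 0.02, adjusted p = 0.226) and +0.12 in EGR1OV against H/R (adjusted p = 0.02). Without H/R replicate 3 the fall in H/R was −0.15 (adjusted p = 0.0518), and without Sham replicate 3 it was −0.15 (adjusted p = 0.0534). The difference between EGR1OV and H/R was +0.06 (adjusted p = 0.223) with median-ratio scaling, and it did not pass without H/R replicate 3 (adjusted p = 0.0689) or EGR1OV replicate 1 or 2. The pseudogene Gpx4-ps2 was listed at 62.6, 57.0 and 61.1 FPKM on average in Sham, H/R and EGR1OV. That is a sizeable share next to Gpx4, so the level of Gpx4 is uncertain where reads fit both, and the log2 difference of the pseudogene in H/R against Sham was −0.13 (adjusted p = 0.0943).

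Aifm2 (ENSMUSG00000020085, chr10:61715263-61739260, plus strand), the coenzyme Q reductase, was the least abundant member in Sham and had the widest spread of the members in H/R (coefficient of variation 15.8%) and EGR1OV (9.87%). It measured 4.28, 4.09 and 3.998 FPKM in Sham, 3.04, 4.07 and 3.23 FPKM in H/R and 5.19, 4.75 and 4.25 FPKM in EGR1OV. H/R replicate 2 reached into the Sham range, and EGR1OV replicate 3 lay just under the highest Sham library. Its log2 difference was +0.16 in EGR1OV against Sham (95% interval −0.04 to 0.36, adjusted p = 0.178) and −0.21 in H/R against Sham (95% interval −0.41 to −0.01, adjusted p = 0.16). Between EGR1OV and H/R it was +0.37 (SE 0.089, adjusted p = 0.00683), just under 1.3-fold on this scale, while the ratio of mean FPKM was 1.37. Without H/R replicate 2 the change in H/R was −0.31 (adjusted p = 0.0422) and that between EGR1OV and H/R was +0.47 and past 1.3-fold. Without EGR1OV replicate 3 the latter was +0.43 and also past it. It was past it as well with a pseudocount of 0.1 (+0.45) and with voom on reads recovered from FPKM (+0.45). With 203 to 355 reads per library, Aifm2 rests on the fewest reads of the 10 members.

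The lipid ligase Acsl4 (ENSMUSG00000031278, chrX:142317993-142390535, minus strand) was the only member called in H/R against Sham. It measured 21.3, 21.7 and 22.6 FPKM in Sham, 27.3, 28.3 and 29.5 FPKM in H/R and 23.5, 20.95 and 22.1 FPKM in EGR1OV. Every H/R library was above all others, and EGR1OV overlapped Sham. The log2 difference was +0.36 in H/R against Sham (SE 0.046, 95% interval 0.26 to 0.46, adjusted p = 0.00238), 29.6% above the Sham mean. In EGR1OV against Sham it was +0.02 (95% interval −0.09 to 0.12, adjusted p = 0.774). Against H/R, EGR1OV was lower by −0.34 (adjusted p = 0.000237), short of 1.3-fold, and it was past that threshold without EGR1OV replicate 1 (−0.38), with median-ratio scaling (−0.40) and with quantile normalization (−0.44).

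For the members with the largest changes in EGR1OV, the genes with the most similar pattern were sought among those with a mean of at least 5 FPKM, by Pearson's r of log2(FPKM + 1) over the 9 libraries. For Slc11a2 these were Naa25 (r = 0.996) and Taok3 (r = 0.994), for Fth1 Nupr1 and Hmox1 (both r = 0.998) and for Slc40a1 Fblim1 (r = 0.991) and Cnn2 (r = 0.989). Such values were common, since 777 of 7587 genes had r over 0.95 with Slc11a2, 842 with Fth1 and 191 with Slc40a1. The 9 points share 3 group means, so r is a description and carries no p.

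Around these 10 genes, 98 other genes of iron, heme, glutathione and lipid peroxide handling were listed in 10 lists, and 83 of them passed the filter. In EGR1OV against Sham, 24 of the 83 were called, 21 higher and 3 lower, with a median log2 difference of 0.14 beside 0.02 for all genes tested, of which 16.4% were called (9.87% higher, 6.51% lower). Quantile normalization gave 20 higher and 10 lower, and median-ratio scaling 21 and 5, so the share of lower calls depends on the scaling. In H/R against Sham 9 were called, 2 higher and 7 lower, with a median of −0.03 beside −0.03 and beside 4.25% of all genes called. Under both of these scalings the calls in H/R were 2 higher and 3 lower. These 9 were 3 heme genes and 1 gene each of the lists for uptake, mitochondrial iron, glutathione and Gpx4, defense apart from Gpx4, lipid peroxidation and transcription factors. In EGR1OV against H/R 28 were called, 22 higher and 6 lower, with a median of 0.17 beside 0.05 and beside 18.9% of all genes called.

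The lists of uptake, export and iron regulatory genes held 4 called genes in EGR1OV against Sham. Of all genes tested there, 16.4% were called (9.87% higher, 6.51% lower) and 45.9% passed (26.1% higher, 19.8% lower). Of 9 uptake genes tested, 6 passed (3 higher, 3 lower), and Lcn2, which carries iron bound to siderophores, was called higher (151 ± 4.58 FPKM in Sham, 848 ± 8.97 FPKM in EGR1OV, log2 difference +2.48, adjusted p = 1.38e-11). Lrp2, the endocytic receptor megalin, was called lower (3.60 ± 0.0824 and 1.22 ± 0.0476 FPKM, −1.05, adjusted p = 1.01e-07). One of the 3 other storage genes tested rose at adjusted p under 0.05, by less than 1.3-fold. Of the 2 export genes tested, the ferroxidase Cp was called higher (5.96 ± 0.220 and 29.8 ± 0.946 FPKM, +2.14, adjusted p = 2.74e-10). Beside Ireb2, 1 of 4 genes was called, Epas1, a hypoxia-inducible factor (1.44 ± 0.0504 and 0.750 ± 0.255 FPKM, −0.49, adjusted p = 0.00261). Without the 4 libraries of high Gm23935 the Epas1 call was lost (−0.41, adjusted p = 0.0618).

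In EGR1OV against Sham, 4 of 11 heme genes and 2 of 11 mitochondrial iron genes tested were called higher, beside 9.87% of all genes tested. Hmox1, which releases iron by breaking down heme, rose from 78.6 ± 1.75 FPKM in Sham to 257 ± 6.74 FPKM (log2 difference +1.69, adjusted p = 1.02e-10). It was 61.6 ± 0.847 FPKM in H/R, where it was called lower (−0.35, adjusted p = 0.000229). Slc25a37, which imports iron into mitochondria, rose from 10.975 ± 0.103 to 19.1 ± 1.21 FPKM in EGR1OV (+0.74, adjusted p = 7.33e-07). In H/R the mitochondrial outer membrane protein Cisd1 was called lower (27.3 ± 0.518 and 22.5 ± 0.912 FPKM, −0.27, adjusted p = 0.0478), a call that did not hold when any 1 of 7 of the 9 libraries was left out (adjusted p = 0.137 without H/R replicate 3).

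The list around Gpx4 holds 12 tested genes of cystine uptake, glutathione synthesis and breakdown, and selenoprotein synthesis, and 6 of them were called higher in EGR1OV against Sham, beside 9.87% of all genes tested. The cystine importer Slc7a11 had the largest rise, from 1.55 ± 0.157 FPKM in Sham to 6.15 ± 0.909 FPKM (log2 difference +1.48, adjusted p = 1.29e-06). The others, named after their values were seen, were its partner chain Slc3a2, the glutathione synthesis genes Gclc, Gclm and Gss and the reductase Gsr. In H/R 1 of the 12 was called, beside 4.25% of all genes tested. It was Chac1, which degrades glutathione (17.2 ± 1.82 and 13.7 ± 0.456 FPKM, −0.31, adjusted p = 0.0249). This call was lost without Sham replicate 1 (adjusted p = 0.0582) or 2 or H/R replicate 1 or 3.

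Of 12 genes of defense that does not run through Gpx4, the list that holds Aifm2, 3 were called higher and 1 lower in EGR1OV against Sham, beside 9.87% and 6.51% of all genes tested. The quinone reductase Nqo1 rose from 1.90 ± 0.274 to 7.17 ± 1.01 FPKM (log2 difference +1.49, adjusted p = 2.42e-05). The phospholipid acyltransferase Mboat2 fell from 2.05 ± 0.0614 to 1.16 ± 0.0795 FPKM (−0.50, adjusted p = 0.000205). In H/R the desaturase Scd2 was called higher (69.9 ± 1.04 and 91.1 ± 3.53 FPKM, +0.38, adjusted p = 0.000231).

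Beside Acsl4, 1 of 11 genes that promote or mark lipid peroxidation was called in each comparison with Sham. Of all genes tested, 16.4% were called in EGR1OV and 4.25% in H/R. The called list gene was Ptgs2 both times. This prostaglandin synthase measured 52.5 ± 2.47 FPKM in Sham, 72.6 ± 6.33 FPKM in H/R (log2 difference +0.46, adjusted p = 0.00326) and 118 ± 6.40 FPKM in EGR1OV (+1.15, adjusted p = 6.07e-07). Of 8 transcription factors and their regulators, 3 were called higher in EGR1OV, beside 9.87% of all genes tested. The stress factor Atf3 had the largest rise (5.36 ± 0.537 FPKM in Sham, 13.7 ± 0.682 FPKM in EGR1OV, +1.22, adjusted p = 2.20e-06). Atf3 was called lower in H/R (3.77 ± 0.457 FPKM, −0.42, adjusted p = 0.0132). The other called factors in EGR1OV, named after their values were seen, were Nfe2l2, the regulator of antioxidant genes, and Keap1, which holds it in check. In H/R, the endolysosomal channel Mcoln1 of the uptake list was called lower (6.49 ± 0.197 and 5.21 ± 0.461 FPKM, −0.27, adjusted p = 0.0148), and the call was lost without Sham replicate 3 (adjusted p = 0.0554), without H/R replicate 3 (−0.21), with median-ratio scaling (−0.24), with quantile normalization (−0.25) and without the 4 libraries of high Gm23935 (adjusted p = 0.22).

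**Figure D4:**
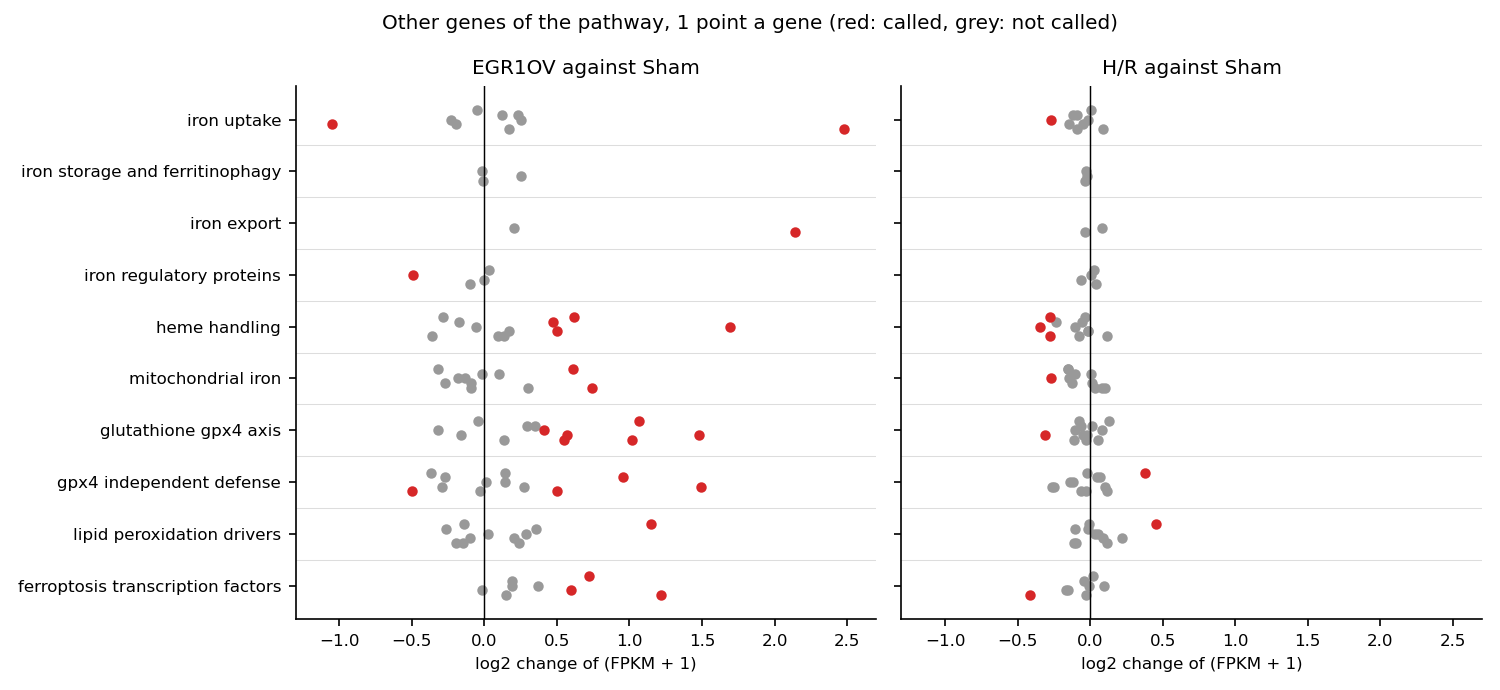
Log2 difference on the log2(FPKM + 1) scale of the tested genes of the 10 lists, members left out, in EGR1OV against Sham and H/R against Sham; each point is a gene, rows are lists, red points are called and grey points are not. In EGR1OV the list around glutathione and Gpx4 has 6 called genes of 12, all to the right of 0, and in H/R the called genes number 9 of 83.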

How the data were processed

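Total RNA was extracted with TRIzol and sequenced on an Illumina NovaSeq instrument, per the labels. The authors deposited 1 table of FPKM values, 1 column per library, with no replicates pooled. Per the submitters' processing notes HISAT2 2.1.0, Bowtie2 2.2.3, TopHat2 and mm9 were named, but 94.6% of gene positions in the table equal GENCODE M21 (GRCm38), and the table's own coordinates are printed as GRCm38. The counter and annotation are not given in the sources used here. In 26 rows a symbol turned into a date was restored from the gene identifier. FPKM values are not counts. Reads were recovered from FPKM, exon length and depth, and 98.7% of 154350 values of 1 to 1000 reads were whole within 0.02. For Fth1 the table used an exon length of 866 bases, as its own position and these steps show, and not the 3469 of the annotation. Reads carry no molecular identifiers, and read numbers cover counting error only.

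Sample titles gave each library its group and replicate number. The 13985 genes whose 9 libraries averaged 0.5 FPKM or more were fitted with limma 3.58.1 in R 4.3.3 (lmFit, eBayes with trend) on log2(FPKM + 1), with a pseudocount of 1, which understates the change of low genes. All 9 libraries shared 1 fit, with no covariate, two-sided tests and Benjamini-Hochberg adjustment over all genes tested. For both comparisons with Sham the study's own fold thresholds were kept, and 1.3 was taken for EGR1OV against H/R. Scripts were tested on simulated data. The 10 members and all lists were chosen with earlier results of these data known. Named list genes are the called gene with the largest rise and that with the largest fall per list in each comparison with Sham. Alternatives were the pseudocount (0.1), the filter (none, or 5 FPKM), median-ratio scaling, quantile normalization, no trend, 2-group fits, other fold thresholds, a replicate block and each library left out. After the data were seen, voom on recovered reads, a Gm23935 covariate and a fit without the 4 libraries of high Gm23935 were added. Equal replicate numbers were checked for pairing by the correlation of deviations from group means.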

Additional observations from a re-analysis of the deposited data

How the results depend on the processing

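Members called numbered 3 in EGR1OV against Sham, 1 in H/R against Sham and 5 in EGR1OV against H/R. Each count of members or list genes was set beside its value under every alternative setting. Of these 132 pairs of counts, members and list genes together, 113 stayed within 1.5 times. They are not separate fits, since some only change the fold threshold. Others leave out a library of a group not compared, which can move a count little. The balance of higher and lower calls moved with the scaling, as given above. Without a fold threshold the members called were 7, 6 and 10, and the list genes 54, 14 and 57. At a 2-fold threshold on the log2(FPKM + 1) scale with limma they were 0, 0 and 0 members (7, 7 and 10 at an unadjusted p under 0.05) and 10, 0 and 7 list genes. In FPKM, Slc11a2 in EGR1OV was 2.12 times the Sham mean and 2.14 times the H/R mean. On the log2(FPKM + 1) scale it was under 2-fold (+0.97 and +0.98). In H/R against Sham, median-ratio scaling gave 2 members and 5 list genes, quantile normalization 5 list genes, and the fit without the 4 libraries of high Gm23935, in which H/R keeps 1 library, 0 members and 0 list genes (5 and 18 at an unadjusted p under 0.05). Leaving out 1 library at a time gave 3 members and 24 to 28 list genes in EGR1OV against Sham, 1 to 2 members and 6 to 9 list genes in H/R against Sham, and 4 to 6 members and 28 to 30 list genes in EGR1OV against H/R. Requiring a mean of 5 FPKM removed Aifm2 and Slc40a1.

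Some differences changed sign, and those against Sham were near 0. Acsl4 in EGR1OV against Sham was −0.0052 with median-ratio scaling, −0.06997 with quantile normalization, and −0.0219 to 0.0578 with 1 library left out (below 0 without EGR1OV replicate 1 or Sham replicate 1). Slc11a2 in H/R against Sham was 0.0217 with median-ratio scaling, 0.0167 with quantile normalization, and −0.0466 to 0.0243 with 1 library left out (above 0 without Sham replicate 1 or H/R replicate 3). Ncoa4 was −0.0071 in H/R against Sham with the Gm23935 covariate, and −0.017 to 0.0306 with 1 library left out (below 0 without Sham replicate 2 or H/R replicate 1). In EGR1OV against H/R, Ncoa4 was −0.0079 with quantile normalization, although it rose in the main limma fit (+0.13, adjusted p = 0.0365). The cause was not tested.

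With the replicate number as a block, 3, 1 and 5 members and 24, 7 and 28 list genes were called in the same order of comparisons. The pairing check gave correlations of same-numbered libraries of −0.195 to 0.263, not all over 0.1. Not every library correlated best with its own number. Libraries of replicate 3 had correlations of 0.263, 0.080 and 0.075 in the same order of comparisons. With 3 libraries per group, this check cannot tell pairing from no pairing. The block changed no member's call, and Chac1 and Cisd1 in H/R did not pass with it (adjusted p = 0.0509 and 0.0854). Another scaling moved the median of all genes by less than 0.1 on the log2 scale. Depth limits Aifm2 and Slc40a1 most, with 203 to 355 and 400 to 696 reads per library.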
